A study of Caenorhabditis elegans with 8 samples.

Results

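The genes described here are 10 regulators of germline stem cells and of the change from sperm to oocyte production in *Caenorhabditis elegans*: *glp-1* (F02A9.6), *lst-1* (T22A3.3), *sygl-1* (T27F6.4), *fbf-1* (H12I13.4), *fbf-2* (F21H12.5), *puf-8* (C30G12.7), *nos-3* (Y53C12B.3), *gld-1* (T23G11.3), *gld-2* (ZC308.1) and *gld-3* (T07F8.3). They were taken by sequence name for their known roles, 10 of the 46445 gene names in each file, and all 10 were among the 13972 genes with enough counts to be tested. The study asked how loss of *mut-16*, which encodes the scaffold of the foci where small RNAs are amplified, changes germline gene expression under heat stress. The mRNA-seq libraries come from pools of whole L4 hermaphrodites, 2 per group and 8 in all: *mut-16(pk710)* mutants (strain NL1810) at 25ºC, the same mutants at 20ºC, wild-type (N2) at 25ºC and wild-type at 20ºC. Animals were plated as synchronized L1s and collected about 39 h later at 25ºC or about 56 h later at 20ºC, so temperature and time of collection change together and cannot be told apart. RNA came from whole animals, so fewer germ cells and less RNA per germ cell cannot be told apart either.

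In the hermaphrodite gonad, the distal tip cell holds germ cells in a stem cell state through Notch signaling: its ligand LAG-2 binds GLP-1 on germ cells, and the genes *lst-1* and *sygl-1* are switched on there. LST-1 and SYGL-1 act with FBF-1 and FBF-2, RNA-binding proteins of the Pumilio (PUF) family, which hold back mRNAs that promote entry into meiosis. That entry is driven by GLD-1, a translational repressor, and by GLD-2, a cytoplasmic poly(A) polymerase that works with GLD-3. The same proteins set the change from sperm to oocytes, which in hermaphrodites falls around the L4 stage: FBF and NOS-3, a Nanos protein, repress *fem-3*, and GLD-3 opposes FBF.

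Library totals lay between 9914054 and 13227929 expected counts, and a regulator had between 27 and 1087 counts in a library. The genotype labels were checked with *mut-16* itself, whose log2(fold change) in *mut-16* mutants against wild-type was −1.64 ± 0.18 (SE) at 25ºC and −2.0 ± 0.18 at 20ºC, with adjusted p-values of 3.41e-05 and 1.6e-05 (edgeR quasi-likelihood test, Benjamini-Hochberg). Levels are given as CPM (counts scaled to a common library size, normalized by TMM), and genes were called where the adjusted p over all genes tested did not exceed 0.05. Transcripts of the 9 general germline markers (*pgl-1*, *glh-1* and others) were present in every library, with summed levels of 700.7 and 733.2 CPM in *mut-16* animals at 25ºC, 699.4 and 781.5 CPM in *mut-16* animals at 20ºC, 662.8 and 740.8 CPM in wild-type at 25ºC, and 944.5 and 787.6 CPM in wild-type at 20ºC.

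The wild-type libraries at 20ºC stood apart for these genes. All 10 regulators were higher in replicate 1 than in replicate 2, by 0.03 to 1.34 on the log2 scale, with a median absolute difference of 0.64 against 0.25 over all genes tested. In the other groups that median for the regulators was 0.16 in *mut-16* animals at 25ºC, 0.31 in *mut-16* animals at 20ºC and 0.18 in wild-type at 25ºC, and neither replicate was higher for all 10. The gap was widest for *puf-8*, with 17.29 and 6.749 CPM, and *fbf-2*, with 8.416 and 3.374 CPM. It was not confined to the regulators, since the 11 oocyte markers summed to 330.1 CPM in replicate 1 and 201.4 CPM in replicate 2. The 9 sperm markers summed to 101.0 and 75.66 CPM, but were farther apart in wild-type at 25ºC, at 93.57 and 147.7 CPM. Comparisons with wild-type at 20ºC rest on libraries that stood apart in this way. Those of the genotypes at 20ºC are also given below for each regulator without replicate 1 and without replicate 2. Those of the temperatures in wild-type and the interactions are given so for the regulators where a call depended on it. For the genes of the marker and pathway lists no such values are given. Their calls between genotypes at 20ºC, between temperatures in wild-type and in the interaction may depend on 1 library too.

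**Figure D1:**
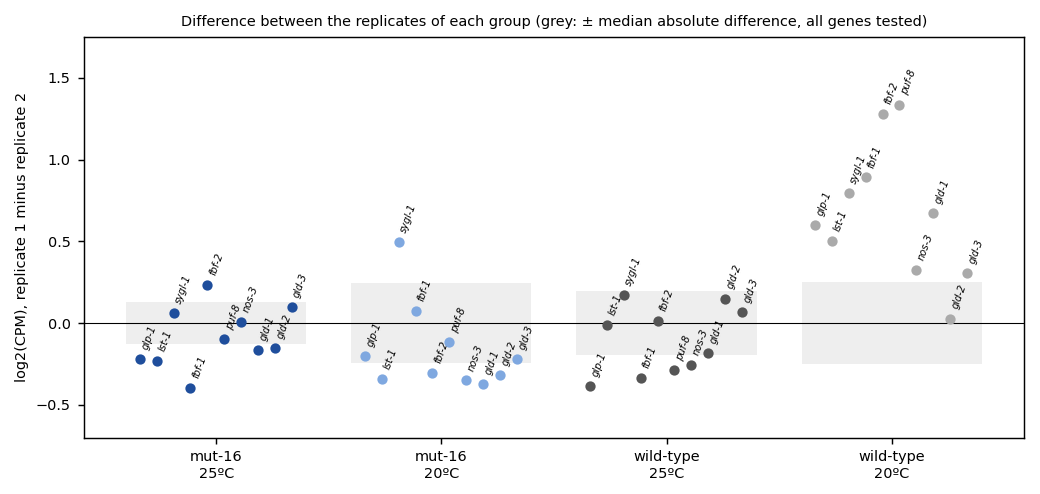
Difference in log2(CPM) between replicate 1 and replicate 2 for each of the 10 genes (points) in the 4 groups, with a grey band from minus to plus the median absolute difference over all genes tested. In wild-type at 20ºC all 10 points lie above 0, up to 1.34 for *puf-8*, and in the other groups they lie on both sides of 0.

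Per kilobase of exon, *gld-1* was the most abundant of the 10, with 23.8 ± 6.24 CPM per kb (SD over the 8 libraries), and it was above the next gene in 8 of 8 libraries. *gld-2* followed with 8.81 ± 0.76, *nos-3* with 8.38 ± 1.26, *lst-1* with 7.05 ± 1.18 and *puf-8* with 6.60 ± 1.72 CPM per kb. These neighbors were not clearly ordered, *gld-2* being above *nos-3* in 5 libraries, *nos-3* above *lst-1* in 6 and *lst-1* above *puf-8* in 4. Below them, *sygl-1* had 5.29 ± 1.11, *glp-1* 4.43 ± 1.12, *gld-3* 3.61 ± 0.80 and *fbf-2* 3.12 ± 0.79 CPM per kb. *puf-8* was above *sygl-1* in 7 libraries, *sygl-1* above *glp-1* in 6, *glp-1* above *gld-3* in 7 and *gld-3* above *fbf-2* in 4. *fbf-1* was lowest at 1.69 ± 0.33 CPM per kb and was below *fbf-2* in 8 of 8 libraries. Exon length here joins the exons of all annotated transcripts of a gene, 1 for *gld-1* but 6 for *gld-2*. Genes with several transcripts can therefore be placed too low in this order.

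**Figure D2:**
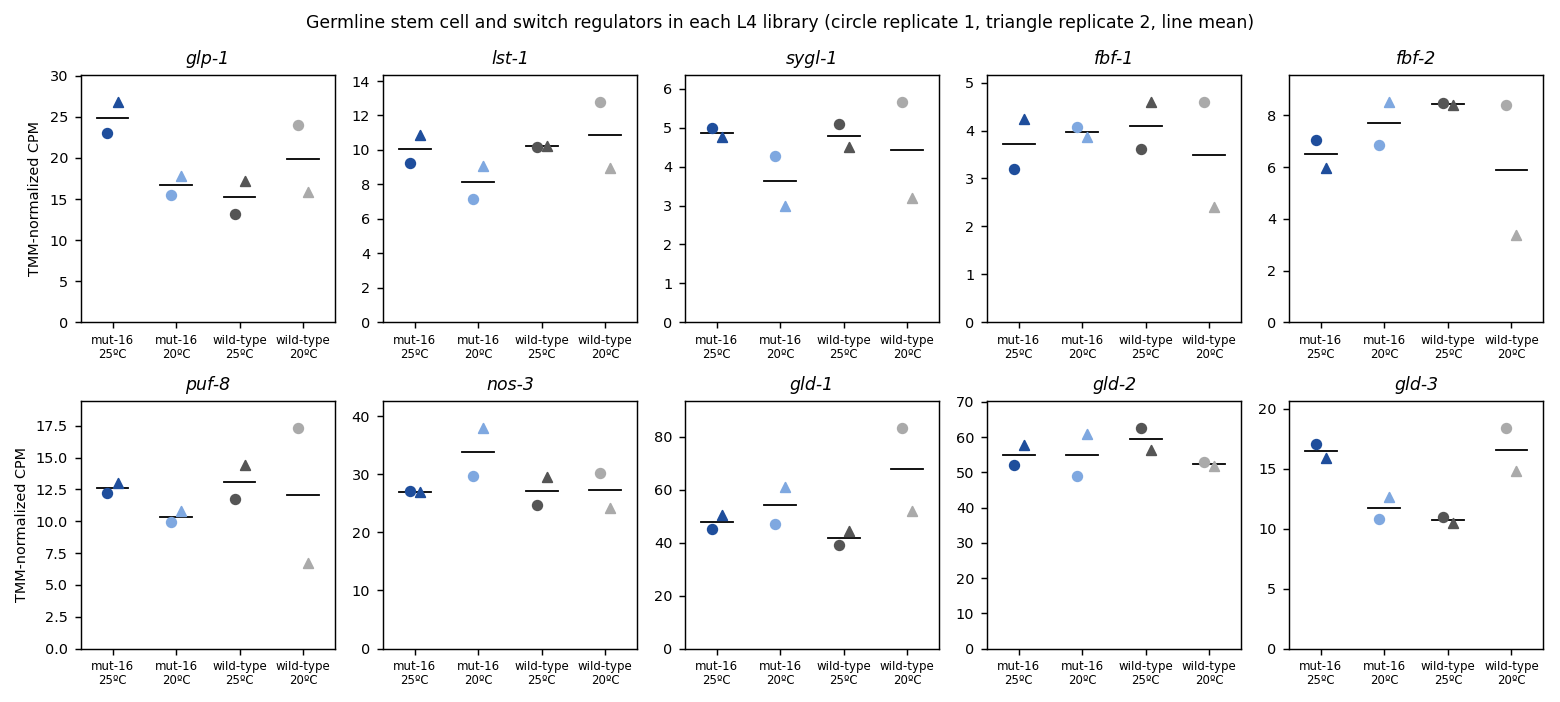
TMM-normalized CPM of each gene (y axis, from 0) in the 8 libraries, by group, with replicate 1 as a circle, replicate 2 as a triangle and the group mean as a line. *glp-1* and *gld-3* are higher in both *mut-16* libraries at 25ºC than in both wild-type libraries at 25ºC, and the replicates of *puf-8* and *fbf-2* are farthest apart in wild-type at 20ºC.

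Among the 10 genes, the calls fell on *glp-1*, *gld-1* and *gld-3*. Each count is given beside the share of all genes called, and a gene that was not called can still have changed. Comparing 25ºC with 20ºC in *mut-16* mutants, 0 of 10 were called in either direction, where 7.71% of all genes tested were called higher and 4.47% lower, 2 of the 10 had an unadjusted p under 0.05 by the edgeR test, and DESeq2 also called 0. Comparing 25ºC with 20ºC in wild-type, 0 were called higher against 11.1% of all genes, and 2 lower, *gld-1* and *gld-3*, against 9.62%. Comparing *mut-16* mutants with wild-type at 25ºC, 2 were called, *glp-1* and *gld-3*, both of them higher, against 7.68% of all genes called higher and 20.2% called in either direction.

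At 20ºC, 0 of 10 were called in *mut-16* mutants against wild-type in either direction, where 2.68% of all genes were called higher and 5.75% lower, 1 of the 10 had an unadjusted p under 0.05 by the edgeR test, and DESeq2 also called 0. The difference between the temperature effects of the genotypes (the interaction, 25ºC against 20ºC in *mut-16* mutants minus the same in wild-type) was called for 1 of 10, *gld-3*, in the positive direction, against 1.59% of all genes, and for 0 in the negative direction, against 1.50%. No regulator passed an absolute log2(fold change) of 1 in any of the 4 comparisons of groups. The median log2(fold change) of the 10 was 0.14 between temperatures in *mut-16* mutants, 0.05 between temperatures in wild-type, −0.02 between genotypes at 25ºC and −0.24 between genotypes at 20ºC, against medians of 0, 0, 0 and −0.05 over all genes. These comparisons share libraries, so the calls in them are not independent of each other.

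**Figure D3:**
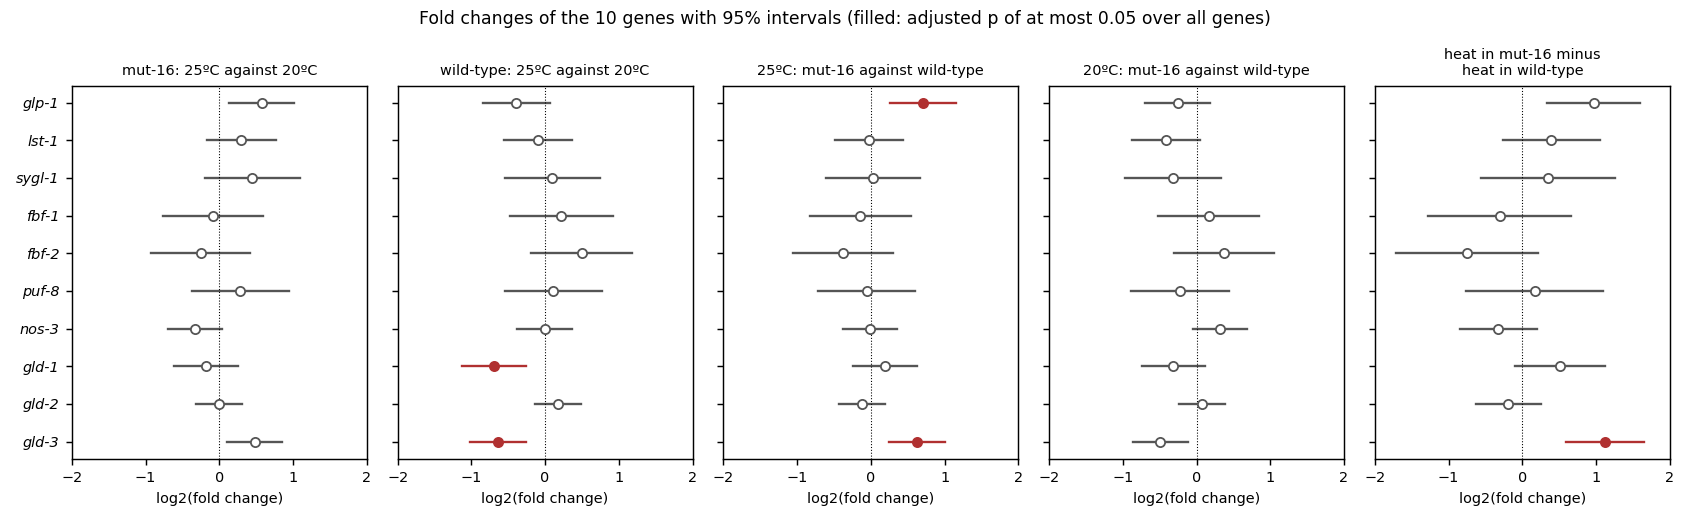
log2(fold change) of the 10 genes (x axis) with 95% intervals from the edgeR fit, 1 panel for each comparison, with the interaction at the right and filled red points for an adjusted p of at most 0.05. Red points are *gld-1* and *gld-3* between temperatures in wild-type, *glp-1* and *gld-3* between genotypes at 25ºC, and *gld-3* in the interaction.

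*glp-1*, the germline Notch receptor (chromosome III, 9092241 to 9099698 in WBcel235, plus strand, 9 exons), had its highest group mean in *mut-16* animals at 25ºC. It had 22.99 and 26.81 CPM in *mut-16* animals at 25ºC, 15.5 and 17.82 CPM in *mut-16* animals at 20ºC, 13.16 and 17.23 CPM in wild-type at 25ºC, and 24.02 and 15.81 CPM in wild-type at 20ºC. At 25ºC the *mut-16* libraries were both above the wild-type libraries, whereas at 20ºC the genotypes overlapped, the lower wild-type library lying between the *mut-16* libraries.

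At 25ºC *glp-1* was up-regulated in *mut-16* mutants, with a log2(fold change) of 0.71 ± 0.21 (SE, n = 2 each, adjusted p = 0.0281, edgeR). Leaving out wild-type replicate 1 at 25ºC gave 0.53, *mut-16* replicate 1 at 25ºC 0.84 and *mut-16* replicate 2 at 25ºC 0.59, each no longer called, with adjusted p-values of 0.232, 0.0587 and 0.212. A fit with 1 library in a group takes that library to vary as the other groups do. Between temperatures in *mut-16* mutants the value was 0.58 ± 0.21 (adjusted p = 0.0868, edgeR), and the libraries at 25ºC were both above those at 20ºC. Over its alternatives this adjusted p ranged between 0.0202 and 0.41, and it was under the threshold in 4 of 16. In wild-type the value between temperatures was −0.39 ± 0.21 (adjusted p = 0.224, edgeR), −0.03 without replicate 1 at 20ºC and, called, −0.66 without replicate 2 at 20ºC. Between genotypes at 20ºC it was −0.26 ± 0.21 (adjusted p = 0.5, edgeR), and its sign depended on 1 library, with 0.15 without wild-type replicate 1 and −0.48 without wild-type replicate 2, neither called. The interaction was 0.97 ± 0.29 (adjusted p = 0.0945, edgeR), with 0.59 without wild-type replicate 1 at 20ºC and, called, 1.23 without wild-type replicate 2 at 20ºC.

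The Notch target genes *lst-1* and *sygl-1* were called in no comparison. *lst-1* had 9.245 and 10.87 CPM in *mut-16* animals at 25ºC, 7.154 and 9.094 CPM in *mut-16* animals at 20ºC, 10.18 and 10.25 CPM in wild-type at 25ºC, and 12.78 and 8.969 CPM in wild-type at 20ºC. *sygl-1* had 4.991 and 4.767 CPM in *mut-16* animals at 25ºC, 4.272 and 2.983 CPM in *mut-16* animals at 20ºC, 5.092 and 4.507 CPM in wild-type at 25ºC, and 5.662 and 3.197 CPM in wild-type at 20ºC. At 25ºC, where *glp-1* was called, the *mut-16* and wild-type libraries overlapped for *sygl-1* and for *lst-1*. The log2(fold change) between genotypes at 25ºC was −0.02 for *lst-1*, with a 95% interval from −0.48 to 0.44, and 0.03 for *sygl-1*, from −0.61 to 0.66. Whether the change of *glp-1* differs from that of these genes was not tested. At 20ºC *lst-1* had −0.42 ± 0.22 and *sygl-1* −0.32 ± 0.30 in *mut-16* mutants against wild-type, with adjusted p-values of 0.275 and 0.578 (edgeR). Without wild-type replicate 1 at 20ºC these values were −0.06 and 0.23, and without wild-type replicate 2 they were −0.60 and −0.63, none of them called.

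The paralogs *fbf-1* and *fbf-2* (both minus strand on chromosome II, 6078263 to 6080843 and 6088863 to 6091480) encode near-identical PUF proteins, so that reads can have been divided between them. Their deposited counts were not whole (to within 0.01) in 7 of 8 libraries while the sum of the pair was whole, and the other 8 regulators had whole counts in all 8 libraries. *fbf-1* took 29.8% to 41.6% of the pair's counts. *fbf-1* had 3.191 and 4.245 CPM in *mut-16* animals at 25ºC, 4.074 and 3.856 CPM in *mut-16* animals at 20ºC, 3.607 and 4.595 CPM in wild-type at 25ºC, and 4.591 and 2.398 CPM in wild-type at 20ºC. *fbf-2* had 7.036 and 5.958 CPM in *mut-16* animals at 25ºC, 6.856 and 8.512 CPM in *mut-16* animals at 20ºC, 8.487 and 8.395 CPM in wild-type at 25ºC, and 8.416 and 3.374 CPM in wild-type at 20ºC. For both genes the lowest of all 8 libraries was wild-type replicate 2 at 20ºC.

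With the pair summed into 1 row, no comparison was called: the log2(fold change) was −0.19 ± 0.27 between temperatures in *mut-16* mutants, 0.41 ± 0.28 between temperatures in wild-type, −0.30 ± 0.27 between genotypes at 25ºC and 0.30 ± 0.28 between genotypes at 20ºC. The lowest adjusted p of these, that between temperatures in wild-type, was 0.346 (edgeR). For *fbf-2* alone the call depended on wild-type replicate 1 at 20ºC. Without it *fbf-2* was called higher at 25ºC in wild-type (1.34), higher in *mut-16* mutants than in wild-type at 20ºC (1.26) and lower in the interaction (−1.61), against 0.50, 0.37 and −0.75 with all libraries, which were not called. Without wild-type replicate 2 at 20ºC the value of *fbf-2* between genotypes at 20ºC was −0.08. For *fbf-1* that value was 0.79 without wild-type replicate 1 and −0.18 without wild-type replicate 2, against 0.16 with all libraries, and none was called.

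*puf-8* encodes another PUF protein, which acts in stem cell proliferation and in the switch to oocytes. It had 12.19 and 13.03 CPM in *mut-16* animals at 25ºC, 9.936 and 10.77 CPM in *mut-16* animals at 20ºC, 11.78 and 14.4 CPM in wild-type at 25ºC, and 17.29 and 6.749 CPM in wild-type at 20ºC. The wild-type libraries at 20ºC were the highest and the lowest of the 8, and *puf-8* was called in no comparison. Between temperatures in wild-type it had 0.11 ± 0.31, and, called, 0.98 without replicate 1 at 20ºC. Between genotypes at 20ºC it had −0.23 ± 0.31, and, called, −0.70 without wild-type replicate 2 at 20ºC. Without wild-type replicate 1 it was 0.69, not called, so its sign too depended on 1 library.

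*nos-3*, whose protein works with FBF in the switch to oocytes and promotes GLD-1 accumulation, was also called in no comparison. It had 27.08 and 26.89 CPM in *mut-16* animals at 25ºC, 29.71 and 37.9 CPM in *mut-16* animals at 20ºC, 24.72 and 29.51 CPM in wild-type at 25ºC, and 30.3 and 24.15 CPM in wild-type at 20ºC. The genotypes overlapped at both temperatures. Its largest absolute log2(fold change) between groups was −0.33 ± 0.17, between temperatures in *mut-16* mutants (adjusted p = 0.243, edgeR). Between genotypes at 20ºC it had 0.31 ± 0.17, 0.56 without wild-type replicate 1 and 0.20 without wild-type replicate 2, none called.

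*gld-1*, which encodes the STAR family repressor that drives meiotic entry and oocyte development, had 45.16 and 50.57 CPM in *mut-16* animals at 25ºC, 47.19 and 61.18 CPM in *mut-16* animals at 20ºC, 39.15 and 44.54 CPM in wild-type at 25ºC, and 83.17 and 52.13 CPM in wild-type at 20ºC. Both wild-type libraries at 25ºC were below those at 20ºC, and wild-type replicate 1 at 20ºC was the highest of the 8. *gld-1* was down-regulated at 25ºC in wild-type, with a log2(fold change) of −0.69 ± 0.20 (adjusted p = 0.026, edgeR). That value was −0.29 without replicate 1 at 20ºC, −0.61 without replicate 1 at 25ºC and −0.79 without replicate 2 at 25ºC, none of them called, and −1.0, called, without replicate 2 at 20ºC.

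Between temperatures in *mut-16* mutants *gld-1* had −0.18 ± 0.20, with a 95% interval from −0.61 to 0.25, and the interaction was 0.51 ± 0.28 (adjusted p = 0.34, edgeR), so a difference between the genotypes in their response to 25ºC was not shown for *gld-1*. The interaction was 0.10 without wild-type replicate 1 at 20ºC and 0.80 without wild-type replicate 2 at 20ºC (adjusted p = 0.843 and 0.0691, edgeR). Between genotypes it had 0.19 ± 0.20 at 25ºC and −0.32 ± 0.20 at 20ºC (adjusted p = 0.557 and 0.373, edgeR). The value at 20ºC changed sign with 1 library, at 0.13 without wild-type replicate 1 and −0.58 without wild-type replicate 2, neither called.

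*gld-2*, the gene of the poly(A) polymerase, was among the steadiest of the 10. It had 51.95 and 57.65 CPM in *mut-16* animals at 25ºC, 48.98 and 60.96 CPM in *mut-16* animals at 20ºC, 62.49 and 56.29 CPM in wild-type at 25ºC, and 52.87 and 51.86 CPM in wild-type at 20ºC. The genotypes overlapped at each temperature. The log2(fold change) lay between −0.12 and 0.18 in the 4 comparisons of groups, and the 95% intervals lay within −0.44 and 0.49. Between genotypes at 20ºC it had 0.07 with all libraries, 0.16 without wild-type replicate 1 and 0.10 without wild-type replicate 2.

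*gld-3* (chromosome II, 7132643 to 7137522, plus strand) encodes a Bicaudal-C relative that binds GLD-2 and opposes FBF. It had 17.02 and 15.86 CPM in *mut-16* animals at 25ºC, 10.83 and 12.66 CPM in *mut-16* animals at 20ºC, 10.93 and 10.43 CPM in wild-type at 25ºC, and 18.36 and 14.83 CPM in wild-type at 20ºC. The levels at 25ºC were both above those at 20ºC in *mut-16* mutants and both below them in wild-type. Of the 4 groups, *mut-16* animals at 25ºC overlapped with wild-type at 20ºC at the higher level, and the other groups with each other at the lower one.

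The temperature effect on *gld-3* differed between the genotypes, with an interaction of 1.12 ± 0.25 on the log2 scale (95% interval from 0.59 to 1.65, adjusted p = 0.0275, edgeR). The log2(fold change) between temperatures was 0.48 ± 0.17 in *mut-16* mutants (adjusted p = 0.0912), where *gld-3* was not called, and −0.64 ± 0.18 in wild-type (adjusted p = 0.0203), where it was down-regulated at 25ºC. Between genotypes it was 0.62 ± 0.18 at 25ºC (adjusted p = 0.0235), where it was up-regulated in *mut-16* mutants, and −0.50 ± 0.17 at 20ºC (adjusted p = 0.101), where it was not called.

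The interaction of *gld-3* had the same sign under every alternative run, between 0.86 and 1.29, and was past the threshold in 7 of 15. It was 0.92 and 1.26, called in both fits, without wild-type replicates 1 and 2 at 20ºC. It was no longer called without wild-type replicate 1 (1.15) or 2 (1.08) at 25ºC, *mut-16* replicate 1 (1.02) or 2 (1.22) at 20ºC, or *mut-16* replicate 1 (1.04) or 2 (1.17) at 25ºC. The value between genotypes at 25ºC was 0.65 and 0.59 without wild-type replicates 1 and 2 at 25ºC and 0.60 and 0.67 without *mut-16* replicates 1 and 2 at 25ºC, with none of these called. The value in wild-type was −0.45 without replicate 1 at 20ºC and −0.68 and −0.61 without replicates 1 and 2 at 25ºC, none called, and −0.79, called, without replicate 2 at 20ºC. The value between genotypes at 20ºC was −0.26 without wild-type replicate 1 and −0.60 without wild-type replicate 2, neither called.

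Ratios within a library do not depend on the scaling between libraries. The ratios given here were chosen after the values were seen, and they carry no test. *glp-1* had 50.91 and 53.02 counts per 100 of *gld-1* in *mut-16* animals at 25ºC, 32.8 and 29.1 in *mut-16* animals at 20ºC, 33.6 and 38.7 in wild-type at 25ºC, and 28.9 and 30.3 in wild-type at 20ºC. Against *gld-1*, *mut-16* animals at 25ºC were above every other library, and the wild-type replicates at 20ºC lay close together. Per 100 counts of *gld-2*, *glp-1* had 44.25 and 46.51 counts in *mut-16* animals at 25ºC, 31.64 and 29.24 counts in *mut-16* animals at 20ºC, 21.05 and 30.61 counts in wild-type at 25ºC, and 45.44 and 30.48 counts in wild-type at 20ºC. On that ratio *mut-16* animals at 25ºC overlapped with wild-type at 20ºC, whose replicates were far apart, and were above the other libraries. *gld-3* had 32.8 and 27.5 counts per 100 of *gld-2* in *mut-16* animals at 25ºC, 22.1 and 20.8 in *mut-16* animals at 20ºC, 17.5 and 18.5 in wild-type at 25ºC, and 34.7 and 28.6 in wild-type at 20ºC. The genotypes did not overlap at either temperature, and the order of *mut-16* mutants and wild-type at 25ºC was the reverse of that at 20ºC. Against *gld-1*, *gld-3* had 37.7 and 31.4 counts per 100 in *mut-16* animals at 25ºC, 22.95 and 20.7 in *mut-16* animals at 20ºC, 27.9 and 23.4 in wild-type at 25ºC, and 22.1 and 28.5 in wild-type at 20ºC. Against this gene, wild-type at 25ºC and at 20ºC overlapped. The genotypes overlapped at 20ºC too, though not at 25ºC, so their separation at 20ºC depended on the gene used as the base.

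**Figure D4:**
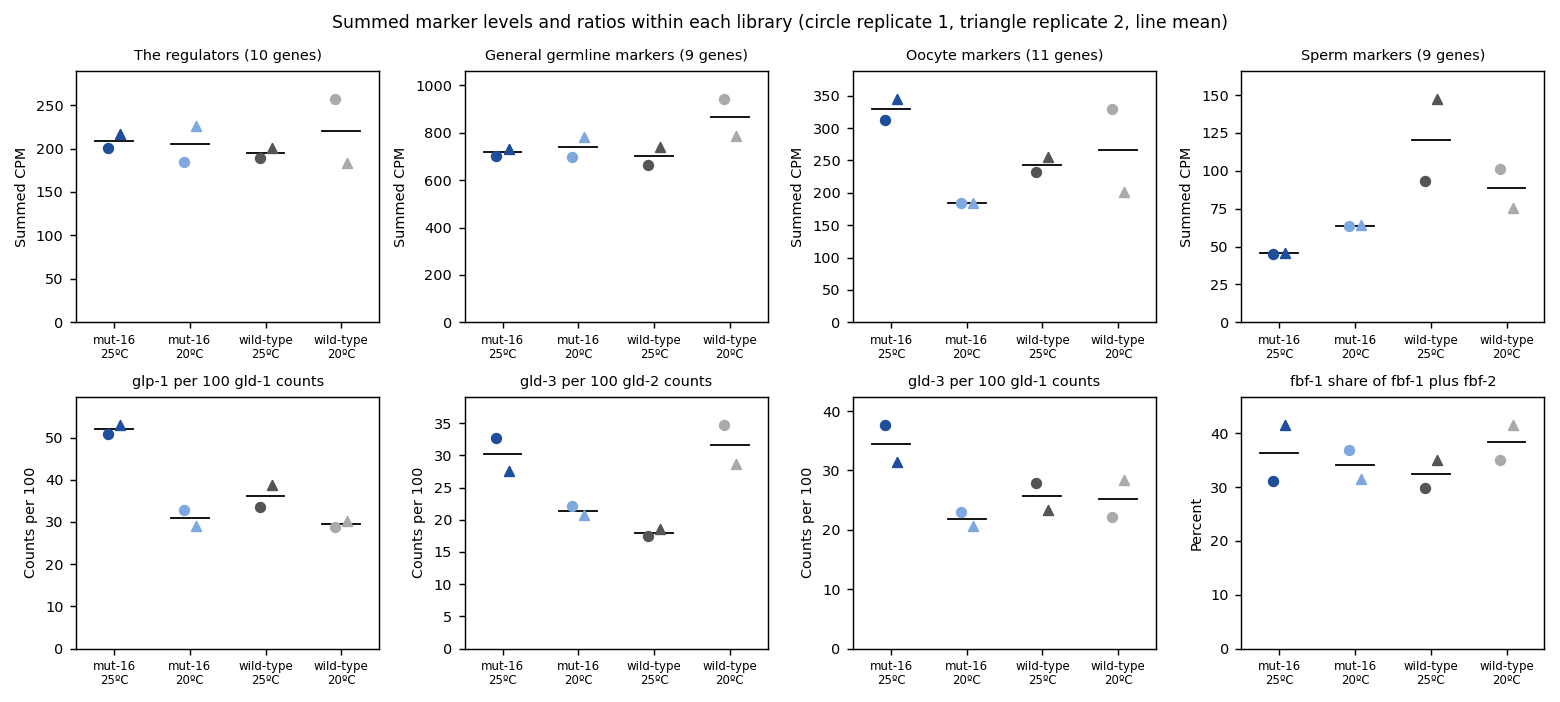
Summed CPM of the 10 regulators and of the germline, oocyte and sperm marker lists in each library (upper row), and ratios of counts within each library (lower row), all from 0, with replicate 1 as a circle, replicate 2 as a triangle and the group mean as a line. *glp-1* per 100 counts of *gld-1* is highest in both *mut-16* libraries at 25ºC, at 50.91 and 53.02, and sperm markers are lowest there, at 45.24 and 45.88 CPM.

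Markers of germ cell types also differed between the groups, both in comparisons where *glp-1* or *gld-3* was called and in others. The 11 oocyte markers summed to 313.1 and 345.5 CPM in *mut-16* animals at 25ºC, 183.5 and 183.5 CPM in *mut-16* animals at 20ºC, 231.5 and 254.8 CPM in wild-type at 25ºC, and 330.1 and 201.4 CPM in wild-type at 20ºC. Of the 11, 9 were called higher at 25ºC than at 20ºC in *mut-16* mutants, among them *puf-5* (1.44) and *oma-2* (1.53), and 0 were called between temperatures in wild-type. The interaction was called for 3 of them, *puf-5*, *oma-2* and *egg-2*, all positive. Between genotypes, 3 were called higher in *mut-16* animals at 25ºC and 4 lower at 20ºC. At 20ºC the sum of wild-type replicate 2, 201.4 CPM, was much nearer to the *mut-16* sums than that of replicate 1. The sum of the 9 sperm markers ran the other way at 25ºC, with 45.24 and 45.88 CPM in *mut-16* animals at 25ºC, 63.59 and 64.02 CPM in *mut-16* animals at 20ºC, 93.57 and 147.7 CPM in wild-type at 25ºC, and 101.0 and 75.66 CPM in wild-type at 20ºC. Of the 8 sperm markers tested, 7 were called lower in *mut-16* mutants than in wild-type at 25ºC, led by *gsp-3* (−1.80), *gsp-4* (−1.84), *spe-11* (−2.10) and *fer-1* (−1.46), and 2 at 20ºC. Between temperatures 2 were called lower at 25ºC in *mut-16* mutants and 1, *gsp-4*, higher in wild-type, and the interaction was called for 1, *gsp-3* (−1.11). No marker of either list was at 0 in any library, and the part of these markers in the values of the regulators was not tested.

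Of the 9 general germline markers, 1 was called in any of the 5 comparisons, *glh-2*, with −1.04 ± 0.21 in *mut-16* mutants against wild-type at 20ºC. Most shared a direction where wild-type at 20ºC was used. Of the 9, 8 were negative between temperatures in wild-type (median −0.31) and 8 between genotypes at 20ºC (median −0.39). In the interaction 8 were positive (median 0.27). Between temperatures in *mut-16* mutants 5 were positive and 4 negative, and between genotypes at 25ºC 3 and 6. As a percent of the summed CPM of these markers, *glp-1* was at 3.28 and 3.66 in *mut-16* animals at 25ºC, 2.22 and 2.28 in *mut-16* animals at 20ºC, 1.99 and 2.33 in wild-type at 25ºC, and 2.54 and 2.01 in wild-type at 20ºC. On this scale the *mut-16* mutants at 25ºC were again above every other library. *gld-3* was at 2.43 and 2.16 in *mut-16* animals at 25ºC, 1.55 and 1.62 in *mut-16* animals at 20ºC, 1.65 and 1.41 in wild-type at 25ºC, and 1.94 and 1.88 in wild-type at 20ºC. With these markers as the scale for all genes, *gld-3* and *gld-1* were no longer called between temperatures in wild-type (−0.33 and −0.37, adjusted p = 0.214 and 0.143, edgeR), and the interaction of *gld-3* was 0.86 (adjusted p = 0.105, edgeR).

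Genes that first rise around adulthood also differed between the groups. *col-19*, an adult cuticle collagen, had a log2(fold change) of 2.72 between temperatures in *mut-16* mutants and 1.95 in wild-type, and of −1.30 and −2.06 in *mut-16* mutants against wild-type at 25ºC and 20ºC, called in each. Of the 7 genes in the adult-onset list, which also holds the 6 vitellogenin genes, 2 were called higher at 25ºC in *mut-16* mutants, and 1 higher and 3 lower at 25ºC in wild-type. In *mut-16* mutants against wild-type, 2 were called lower at 25ºC and 5 lower at 20ºC. The list summed to 301.6 and 398.5 CPM in *mut-16* animals at 25ºC, 289.8 and 403.5 CPM in *mut-16* animals at 20ºC, 803.3 and 470.0 CPM in wild-type at 25ºC, and 608.4 and 733.2 CPM in wild-type at 20ºC. The part of developmental timing within L4 in the values of the regulators was not tested.

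Among 13 other genes of Notch signaling and the stem cell niche, 12 were tested. *lag-2*, the niche ligand, was the exception and had 0 counts in at least 1 library. In *mut-16* mutants against wild-type at 25ºC, where *glp-1* was up-regulated, 2 were called higher, the ADAM protease gene *sup-17* (0.60 ± 0.15) and the ligand gene *apx-1* (0.85 ± 0.25), and 0 lower, and the median of the 12 was 0.14. At 20ºC 0 were called. *aph-2*, a subunit of the γ-secretase that cleaves Notch, and *lin-12*, the Notch receptor of somatic cells, were called lower at 25ºC in wild-type (−0.70 ± 0.16 and −0.80 ± 0.23), and *lin-12* also in *mut-16* mutants (−0.69 ± 0.21). The interaction was called for 0 of the 12.

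Among 16 partners of the RNA regulators, 4 were called higher at 25ºC than at 20ºC in *mut-16* mutants. These were *mex-3* (0.95 ± 0.18), which encodes a KH-domain repressor, the PUF genes *puf-11* (1.16 ± 0.23) and *puf-3* (1.06 ± 0.24), and the Nanos gene *nos-2* (1.10 ± 0.28). Of these, *puf-11* (−0.99 ± 0.24) and *puf-3* (−0.95 ± 0.24) were called lower in *mut-16* mutants than in wild-type at 20ºC. None of the 16 was called between temperatures in wild-type, between genotypes at 25ºC or in the interaction.

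Of 14 tested genes of the sex determination and sperm-oocyte pathway, the *fem*, *fog*, *tra* and *mog* genes among them, 1 was called in any comparison. It was *fem-3*, the mRNA that FBF represses to end sperm production, which was lower at 25ºC in wild-type (−1.02 ± 0.33, adjusted p = 0.0453, edgeR). Between temperatures in *mut-16* mutants *fem-3* had 0.69 ± 0.32, and its interaction was 1.71 ± 0.46 (adjusted p = 0.194 and 0.0655, edgeR), neither called. Of 14 mitotic cell cycle genes, *rnr-1*, a ribonucleotide reductase subunit, was called lower at 25ºC in *mut-16* mutants (−0.83 ± 0.12) and in wild-type (−0.52 ± 0.12). The replication helicase gene *mcm-3* (−0.63 ± 0.14) and *rnr-2* (−0.50 ± 0.15) were also lower at 25ºC in wild-type, and the cyclin gene *cyb-3* (0.64 ± 0.18) was higher at 25ºC in *mut-16* mutants. Between genotypes at 25ºC, *mcm-3* (0.60 ± 0.14), *rnr-2* (0.55 ± 0.15) and *mcm-4* (0.44 ± 0.14) were higher and *cyb-1* (−0.53 ± 0.16) lower in *mut-16* mutants than in wild-type. Of 11 genes of the meiotic chromosome axis and synapsis, *syp-3* was called lower at 25ºC in wild-type (−0.81 ± 0.24), and *htp-1* (−1.16 ± 0.18) and *syp-2* (−1.02 ± 0.21) lower in *mut-16* mutants than in wild-type at 20ºC.

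The somatic marker lists, of 4 genes each, also held called genes, and the shares of all genes called are those given above for each comparison. Of 4 gonad sheath markers, *inx-8* was higher at 25ºC in *mut-16* mutants (0.93 ± 0.24), and 0 were called in the other comparisons. Of 4 muscle markers, *unc-22* was lower at 25ºC in *mut-16* mutants (−0.86 ± 0.17) and in wild-type (−0.50 ± 0.17), and *unc-54* was higher in *mut-16* mutants than in wild-type at 20ºC (0.57 ± 0.14). Of 4 intestinal markers, *elt-7* was higher at 25ºC in *mut-16* mutants (0.63 ± 0.17) and in wild-type (0.70 ± 0.17), and *act-5* was higher in *mut-16* mutants than in wild-type at 20ºC (0.60 ± 0.15).

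The genes whose profiles over the 8 libraries were most like that of *glp-1*, by the root mean square difference of centered log2 CPM among 7941 other genes whose log2 CPM averaged 3 or more, were *wrm-1* (0.10), *acly-2* (0.11) and *vha-7* (0.11). *glp-1* itself varied by 0.33 on this measure. Of the 6 other regulators that reached this level, *gld-3* was nearest, at 0.20 and the 117th of these genes, and *sygl-1*, *fbf-1* and *fbf-2* did not reach it. For *gld-1*, which varied by 0.31, the nearest were *cogc-6* (0.13), *knl-2* (0.15) and C26E6.12 (0.15). The nearest to *gld-1* of the 6 regulators compared with it was *gld-3*, at 0.27 and the 968th.

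Neighboring genes share few exon bases with the regulators. By the annotation, *glp-1*, *fbf-1*, *nos-3* and *gld-2* share exon bases with a gene on the opposite strand, between 15 and 51 bases each. The other 6 regulators share none. Reads in those bases cannot be told apart without strand. The authors prepared the libraries with a directional kit, but the strand setting of the quantification is not given in the sources used here.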

How the data were processed

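mRNA-seq libraries of whole L4 animals were analysed, 2 for each of 4 groups. According to the authors, reads were trimmed with Cutadapt and quantified with Salmon against WS258 transcripts, and the deposited values are expected counts summed per gene, not scaled. Of 46445 names, 99.6% matched the Ensembl release 115 annotation (WBcel235), which gave symbols, positions and exon lengths. Libraries held 9914054 to 13227929 expected counts, of which 9.83% to 14.29% were rRNA.

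Counts were rounded and tested with edgeR 4.0.16 in R 4.3.3 (quasi-likelihood F test, 4 group means, all 8 libraries, TMM scaling, filterByExpr with minimum count 10 and minimum total 15), adjusted by Benjamini-Hochberg over 13972 genes. CPM logs used a prior count of 2. The fit was tested on simulated data, where it recovered most large changes but missed a good part of the smaller ones and fell short of the recovery first required for them. The requirement was then set on the large changes. Most changes of the regulators were smaller still, so a count of 0 calls does not show that they did not change. With 2 libraries per group, p-values rest largely on a spread shared among genes.

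The members, 12 lists and tests were chosen with earlier results of these data known. Of 118 list symbols, 117 matched (not *mog-6*). Named are all 10 members, *mut-16*, up to 4 called genes per list and comparison with the lowest adjusted p, and 3 nearest profiles each for *glp-1* and *gld-1*. Alternatives were DESeq2 1.42.0, RLE, total-count and germline-marker scaling, other filters, a replicate block, only the groups compared, and each library left out. Small RNA-seq and adult libraries were not analysed here.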

Additional observations from a re-analysis of the deposited data

Results flagged for a closer look

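The estimated temperature effects on *gld-3* had opposite signs in the genotypes. The difference itself passed the edgeR test, with an interaction of 1.12 on the log2 scale (adjusted p = 0.0275, Benjamini-Hochberg). It was past the threshold in 7 of 15 alternatives. The rise in *mut-16* mutants alone (0.48) was not called (adjusted p = 0.0912, edgeR), and was past the threshold in 0 of 16 alternatives. The libraries at 25ºC were above those at 20ºC in 2 of 2 *mut-16* libraries and below them in 2 of 2 wild-type libraries.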

How the results depend on the processing

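Of 799 values of the regulators recomputed under the alternatives, 761 kept their direction and side of the threshold or were called in neither fit. A further 26 were no longer called, 12 became called and 0 called values changed sign. Among values called in neither fit, 55 changed sign. Most of the 799 were not called in the main fit and could not lose a call. Of those that could, *gld-1* and *gld-3* between temperatures in wild-type were each past the threshold in 11 of 16 alternatives. Between genotypes at 25ºC, *glp-1* was past it in 13 of 16 and *gld-3* in 11 of 16, and the interaction of *gld-3* in 7 of 15. Between temperatures in *mut-16* mutants, 1 regulator (*glp-1*) was called with no filter beyond 1 count or in a fit of only the groups compared, and 0 to 1 with a library left out. Between temperatures in wild-type, 0 were called with germline-marker scaling or in a fit of only the groups compared, where *gld-1* had −0.71 and *gld-3* −0.65 (adjusted p = 0.0513 and 0.0547, edgeR), and 0 to 3 with a library left out. Between genotypes at 25ºC, 1 (*glp-1*) was called by DESeq2, where *gld-3* had an adjusted p of 0.0665, and 0 to 2 with a library left out, and at 20ºC 0 to 1. The interaction gave 0 calls with germline-marker scaling, 2 with no filter beyond 1 count and 0 to 2 with a library left out. With a replicate block it gave 0 calls, *gld-3* having 1.11 (adjusted p = 0.0503, edgeR). The block changed no other call. The number of all genes called also changed between the alternatives, so these counts do not share 1 calling rate. In the interaction, the main fit called 222 of 13972 genes higher and 209 lower. Germline-marker scaling called 55 higher and 227 lower of as many genes, and no filter beyond 1 count 668 and 543 of 19449. Same-numbered libraries deviated from their group means with correlations between −0.16 and 0.07 over genes, which gave no reason to pair them.

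Total-count scaling shifted the median of all genes to −0.25 between temperatures in wild-type, 0.18 between genotypes at 25ºC and 0.19 in the interaction, and germline-marker scaling to 0.29 between temperatures in wild-type, 0.17 between genotypes at 20ºC and −0.24 in the interaction. The interaction of *gld-3* was 1.29 with total counts and 0.86 with germline markers. Relative to the shifted median it was 1.10 under either scaling, and its value between temperatures in wild-type −0.64 and −0.62. A change of scaling moves all genes by nearly the same amount, so subtracting the median largely undoes it. These relative values are therefore no separate support. The share of called genes that were higher, 53.7% between temperatures in wild-type, was 24.2% with total counts and 85.5% with germline markers. For the interaction it was 51.5%, 78.8% and 19.5%. Between genotypes at 25ºC it was 38.1% and 59.8% with total counts, at 20ºC 31.8% and 69.5% with germline markers, and between temperatures in *mut-16* mutants 63.3% and 74.9% with germline markers. DESeq2 gave no adjusted p in the interaction for 1 regulator. The intervals were widest for *fbf-1*, *fbf-2*, *puf-8* and *sygl-1*, and changes smaller than these were not detectable with 2 libraries per group.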
